A study of Mus musculus with 6 samples.

Results

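Genes of cyclic GMP (cGMP) and natriuretic peptide signalling were examined in cancer-associated fibroblasts (CAFs) from mouse colonic adenomas. The 8 genes Npr1, Npr2, Npr3, Gucy1a2, Prkg1, Mrvi1, Pde3a and Pde5a were taken by symbol from a table of 49548 genes, and each symbol matched 1 row. The data are 6 libraries of 3′ mRNA sequencing from C57/BL6 mice with the genotype Col6a1-cre, Rosa26-mTmG, in which Cre turns the fluorescence of a cell from Tomato to GFP. The mice received the carcinogen azoxymethane at 8 to 10 weeks of age and then 3 cycles of dextran sodium sulfate (AOM/DSS). Each library came from pooled tumors of 5 to 6 mice. GFP+ and Tomato+ cells were sorted from the same tumors, so libraries of the subsets with the same replicate number may share a pool. From the cells negative for CD45, EpCAM, CD31 and Ter119, the 3 libraries of Col6a1+ CAFs hold the GFP+ cells and the 3 of Col6a1− CAFs the Tomato+ cells, so both subsets share the genotype and the treatment. GFP marks cells in which the Col6a1Cre transgene was active at any time, which in the colon are mainly PDGFRα-high fibroblasts and pericytes, and Col6a1− CAFs are all remaining cells of the gate.

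Cyclic GMP is made by guanylyl cyclases of distinct kinds. The natriuretic peptide receptors encoded by Npr1 and Npr2 are membrane cyclases that bind peptide hormones. Soluble guanylyl cyclase is instead an intracellular heterodimer of an α and a β subunit that binds nitric oxide. In vascular smooth muscle and pericytes, cGMP activates the kinase encoded by Prkg1, which lowers calcium release and relaxes the cell, and phosphodiesterases end the signal. In the gut, cGMP is also known from the epithelium, where guanylin activates the cyclase encoded by Gucy2c.

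Promoter sequences are shown for Mrvi1, the member with the smallest adjusted p, for Gucy1a2, the member with the largest log2 fold change, and for Gucy1b3, which encodes the β subunit that pairs with the product of Gucy1a2. Each is the 250 bases before a transcript start of RefSeq on GRCm38.p6, 5′ to 3′ in the direction of the gene, with matches to TGGGAA or GGGCGG on either strand in capitals. The windows are chr7:110982462-110982711 on the minus strand, chr9:3532099-3532348 on the plus strand and chr3:82074712-82074961 on the minus strand.
Mrvi1: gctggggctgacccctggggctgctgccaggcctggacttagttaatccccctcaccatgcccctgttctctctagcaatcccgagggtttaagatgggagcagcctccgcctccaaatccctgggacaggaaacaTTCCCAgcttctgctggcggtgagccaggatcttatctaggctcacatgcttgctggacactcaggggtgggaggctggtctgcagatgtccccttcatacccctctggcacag
Gucy1a2: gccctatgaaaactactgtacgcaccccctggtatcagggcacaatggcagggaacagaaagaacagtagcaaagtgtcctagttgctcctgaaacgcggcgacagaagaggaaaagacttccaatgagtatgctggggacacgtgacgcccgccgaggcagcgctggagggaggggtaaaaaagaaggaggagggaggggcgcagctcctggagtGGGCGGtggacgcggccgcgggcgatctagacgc
Gucy1b3: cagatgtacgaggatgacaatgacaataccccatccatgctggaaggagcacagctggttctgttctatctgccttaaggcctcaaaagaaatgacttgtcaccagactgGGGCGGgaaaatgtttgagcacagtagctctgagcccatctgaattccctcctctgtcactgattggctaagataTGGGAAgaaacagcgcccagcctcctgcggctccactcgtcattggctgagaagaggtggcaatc
Promoters were matched for 7 of the 8 members, with 9 windows in all, and Pde3a was not matched. The letters TGGGAA were found in 4 of the 9 windows (Prkg1, Pde5a, Mrvi1 and Npr1) and in 21.6% of 32851 promoter windows of the same length. GGGCGG was found in 5 windows of 4 members (Prkg1, Pde5a, Npr1 and Gucy1a2), against 32.7% of all windows. The CArG box, searched by its full consensus, and TATAAA were found in 0 of the 9 windows, and they were in 1.47% and 12.4% of all windows. These matches describe letters only.

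Levels are normalized counts, that is, reads per gene divided by the size factor of the library, as the authors scaled them. The sums over all genes lay between 3039152 and 3425249 normalized counts per library and are not numbers of reads. Col6a1+ replicate 1 had the fewest genes above 0, 14530, and the highest number was 20511. A level of 0 allows up to 3 reads before scaling, and this covers counting error only. The bound of 3 was applied to normalized counts, in which it can differ between libraries. Col6a1 itself had 861, 1287 and 1941 normalized counts in Col6a1+ replicates 1 to 3 and 182, 321 and 102 in Col6a1− replicates 1 to 3. Below, 3 values in a row are always replicates 1, 2 and 3. Fold changes are differences of mean log2(normalized count + 1), Col6a1+ minus Col6a1−, tested with limma over the 26402 genes that were not at 0 throughout, with their standard error (SE). P-values are adjusted over all of these by the Benjamini-Hochberg method. The median log2 fold change of all these genes was -0.27. In sorted pools such as these, more cells that carry a transcript and more transcript per cell cannot be told apart.

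All 8 members were among the genes tested, and all had positive log2 fold changes, from 1.53 to 3.82 with a median of 2.31. Mrvi1, Pde3a and Pde5a were higher in Col6a1+ CAFs at an adjusted p under 0.05, so that 3 of 8 members were called higher and 0 lower, while 2.66% of all genes tested were called higher and 1.96% lower (4.62% in either direction). In 5 members (Mrvi1, Pde3a, Pde5a, Gucy1a2 and Npr3) the lowest Col6a1+ library lay above the highest Col6a1− library, as it did in 7.91% of all genes. At an unadjusted p under 0.05 with a log2 fold change over 1, 6 members passed, and 6.09% of all genes did so in this direction and 8.61% in the other. The members were proposed with results of these libraries known, so these counts describe them and are not a test of the group. With the replicate number as a block, limma called 0 of the 8 members and 0 of all genes in this direction, although 6 members had an unadjusted p under 0.05. With the block over the 13515 genes averaging 10 or more normalized counts, 3 of the 5 members tested were called higher, and 7.26% of those genes were. Without Col6a1− replicate 1, limma called 0 members, again with 6 at an unadjusted p under 0.05. In that fit 11 of 25839 genes were called higher and 1 lower, against 703 and 517 of 26402 with all libraries. Leaving out each other library in turn gave 102 to 453 genes called higher. The call was kept by Mrvi1 and no other member when replicate 2 or 3 of Col6a1+ CAFs or replicate 3 of Col6a1− CAFs was left out. Mrvi1 and Pde3a kept it when replicate 2 of Col6a1− CAFs was left out, and all 3 did when replicate 1 of Col6a1+ CAFs was.

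**Figure D1:**
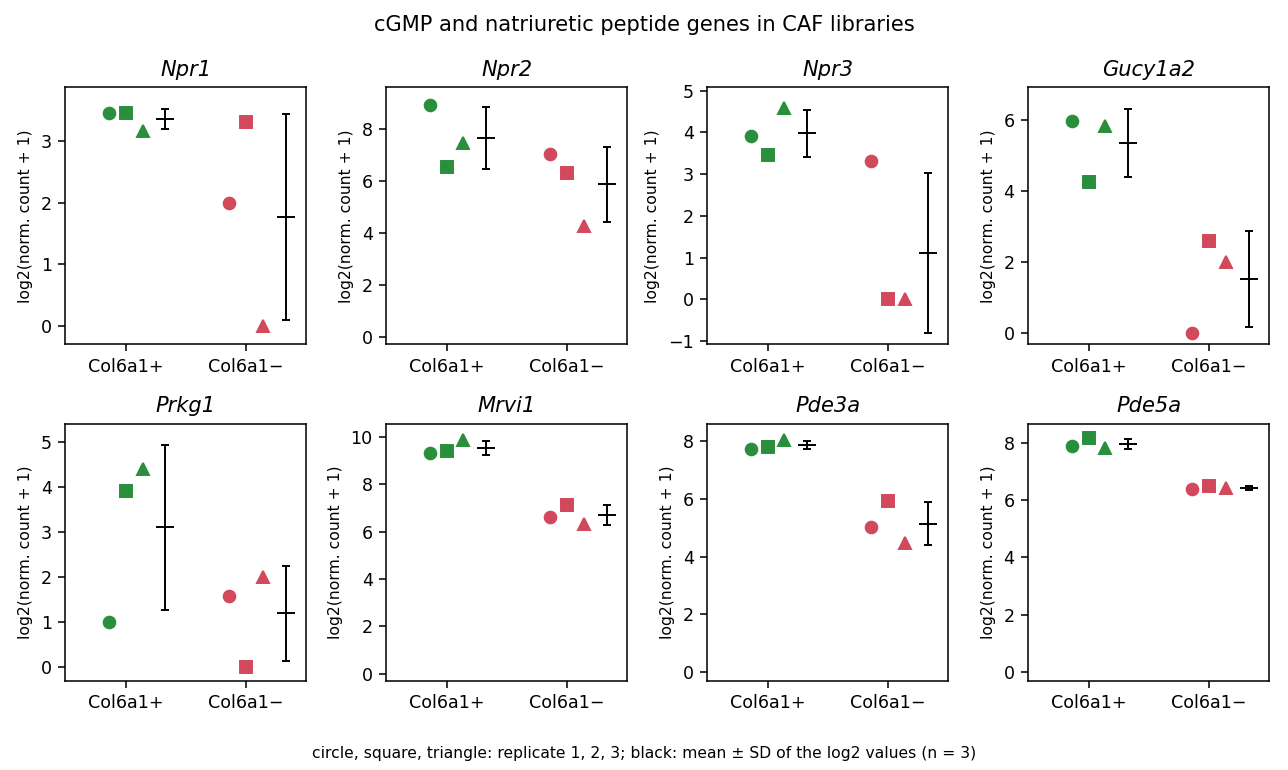
Levels of the 8 genes in each library, as log2 of the normalized count plus 1 (vertical axis), for Col6a1+ CAFs (green) and Col6a1− CAFs (red), with symbols for replicates 1 to 3 and black bars for the mean ± SD of the log2 values (n = 3). The 3 libraries of each subset are separate for Mrvi1, Pde3a, Pde5a, Gucy1a2 and Npr3, and overlap for Npr1, Npr2 and Prkg1.

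Among the receptors, Npr2 encodes the cyclase that binds C-type natriuretic peptide (ENSMUSG00000028469, chromosome 4 from 43631935 to 43651244 of mm10, plus strand). It had 479, 92 and 174 normalized counts in Col6a1+ CAFs and 130, 77 and 18 in Col6a1− CAFs. Col6a1+ replicate 1 was the highest of the 6 libraries and Col6a1− replicate 3 the lowest, and the subsets overlapped. The means were 248 ± 204 and 75 ± 56.0 (SD, n = 3 each), and the difference of 1.78 ± 0.75 (SE) on the log2 scale did not pass (adjusted p = 0.268 in limma). It was 1.14 when Col6a1+ replicate 1 was left out and 0.97 when Col6a1− replicate 3 was.

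Npr1, which encodes the receptor for atrial and B-type natriuretic peptides (ENSMUSG00000027931, chromosome 3 from 90450591 to 90465866, minus strand), was close to the detection limit. It had 10, 10 and 8 normalized counts in Col6a1+ CAFs and 3, 9 and 0 in Col6a1− CAFs. The Col6a1+ libraries were close together, and Col6a1− replicate 2 lay between them. The difference of 1.59 ± 1.08 (SE) on the log2 scale did not pass (adjusted p = 0.533 in limma). Gm16048, an antisense gene that overlaps Npr1, had means of 6 and 7.67 normalized counts in the subsets, and whether the counting used the strand is not stated, so the counts of Npr1 are uncertain.

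Npr3 encodes the clearance receptor, which binds natriuretic peptides and removes them without a cyclase of its own (ENSMUSG00000022206, chromosome 15 from 11839896 to 11905674, minus strand). Its normalized counts were 14, 10 and 23 in Col6a1+ CAFs and 9, 0 and 0 in Col6a1− CAFs. The subsets did not overlap, but Col6a1− replicate 1 was only 1 normalized count below the lowest Col6a1+ library. The log2 fold change was 2.88 ± 1.15 (SE, adjusted p = 0.234 in limma). It rose to 5.05 with 0.1 added to the counts in place of 1, and the adjusted p was 0.0949 or more under each of the 10 alternatives that could be run for it.

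Gucy1a2 (ENSMUSG00000041624, chromosome 9 from 3532778 to 3894736, plus strand) encodes the α2 subunit of soluble guanylyl cyclase. It had 61, 18 and 56 normalized counts in Col6a1+ CAFs and 0, 5 and 3 in Col6a1− CAFs. Every Col6a1+ library was above every Col6a1− library, and Col6a1+ replicate 2 was the lowest of its subset. The log2 fold change of 3.82 ± 1.00 (SE) was the largest of the members and missed the threshold (limma adjusted p = 0.0597). Its adjusted p fell to 0.0258 in limma-voom and to 0.0430 when genes averaging under 10 normalized counts were left out, and 12 alternatives gave adjusted p-values of 0.0258 to 0.232. In the fit without those low genes 4 of the 5 members left were called higher, beside 6.03% of all genes left.

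Prkg1, the gene of the cGMP-dependent protein kinase of smooth muscle (ENSMUSG00000052920, chromosome 19 from 30567551 to 31765033, minus strand), had few counts. The libraries held 1, 14 and 20 normalized counts in Col6a1+ CAFs and 2, 0 and 3 in Col6a1− CAFs. Col6a1+ replicate 1 lay below Col6a1− replicates 1 and 3, and the other Col6a1+ libraries lay above all Col6a1− libraries. The difference of 1.90 ± 1.16 (SE) on the log2 scale did not pass (adjusted p = 0.479 in limma), and it was 2.95 without Col6a1+ replicate 1 (adjusted p = 0.127). The gene Cstf2t lies within Prkg1 on the opposite strand and had means of 155 and 126 normalized counts.

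Mrvi1 encodes IRAG, a substrate of that kinase that binds the inositol trisphosphate receptor and restrains calcium release (ENSMUSG00000005611, chromosome 7 from 110868266 to 110982461, minus strand). It had 635, 677 and 941 normalized counts in Col6a1+ CAFs and 98, 139 and 78 in Col6a1− CAFs. The lowest Col6a1+ library was far above the highest Col6a1− library, and the spread within each subset was small beside this distance. The means were 751 ± 166 and 105 ± 31.1 (SD, n = 3 each), a ratio of 7.15, and Mrvi1 was higher in Col6a1+ CAFs by 2.85 ± 0.33 (SE) on the log2 scale (adjusted p = 0.00172 in limma). The adjusted p was 0.0612 with the replicate block and 0.0693 without Col6a1− replicate 1, within a range of 6.81e-04 to 0.0693 over 13 alternatives. No gene had an adjusted p below 0.0612 in limma with the block over all genes. With the block over genes averaging 10 or more normalized counts, the adjusted p of Mrvi1 was 0.00219.

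The phosphodiesterase gene Pde5a (ENSMUSG00000053965, chromosome 3 from 122728947 to 122859374, plus strand) encodes the enzyme that hydrolyses cGMP selectively and is the target of sildenafil. It had 234, 287 and 226 normalized counts in Col6a1+ CAFs and 82, 89 and 84 in Col6a1− CAFs. The Col6a1− libraries were within 7 normalized counts of each other, and the subsets did not overlap. The means were 249 ± 33.2 and 85 ± 3.61 (SD, n = 3 each), a ratio of 2.93, and Pde5a was higher in Col6a1+ CAFs by 1.53 ± 0.32 (SE) on the log2 scale (adjusted p = 0.0239 in limma, and 0.0801 with the block). With the block over genes averaging 10 or more normalized counts, the limma adjusted p of Pde5a was 0.0154. Its log2 fold change stayed between 1.43 and 1.60 when 1 library was left out, with adjusted p-values of 0.0348 without Col6a1+ replicate 1 and of 0.0886 to 0.116 in the other 5 fits.

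Pde3a (ENSMUSG00000041741, chromosome 6 from 141249269 to 141507448, plus strand) encodes a phosphodiesterase that hydrolyses cyclic AMP (cAMP) and is inhibited by cGMP. It had 214, 224 and 260 normalized counts in Col6a1+ CAFs and 32, 60 and 21 in Col6a1− CAFs. All Col6a1+ libraries lay within a narrow range above the Col6a1− libraries, which differed more among themselves. The means were 233 ± 24.2 and 37.7 ± 20.1 (SD, n = 3 each), a ratio of 6.18, and Pde3a was higher in Col6a1+ CAFs by 2.72 ± 0.45 (SE) on the log2 scale (adjusted p = 0.00760 in limma, and 0.0789 with the block). With the block over genes averaging 10 or more normalized counts, the limma adjusted p of Pde3a was 0.00656. The adjusted p was 0.0552 and 0.0687 when Col6a1+ replicates 2 and 3 were left out in turn and 0.101 and 0.0785 when Col6a1− replicates 1 and 3 were, and the log2 fold change stayed between 2.38 and 3.11. The antisense gene Gm28523 overlaps the start of Pde3a and had means of 29 and 5 normalized counts, and Gm43958 on the same strand had 9.33 and 0.

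Related genes were also compared within each library. For 5 pairs, the log2 ratio of the normalized counts plus 1 was compared between the subsets with an exact two-sided permutation test, for which 3 against 3 libraries allow no p below 0.1. Where a count is near 0, such a ratio depends on the 1 that is added. The log2 ratio of Prkg1 to Prkg2, the kinase gene known from gut epithelium, was -2.46, -1.62 and -2.10 in Col6a1+ CAFs and -5.74, -7.28 and -5.76 in Col6a1− CAFs. These values did not overlap, but Prkg1 was at or under 3 counts in all Col6a1− libraries and in Col6a1+ replicate 1. The difference of 4.20 (exact p = 0.1, adjusted p = 0.25 over 5 pairs) became 5.31 with 0.1 added in place of 1, so its size is uncertain. The log2 ratio of Pde3a to Pde3b, a gene of the same phosphodiesterase family, was 2.26, 1.77 and 1.84 against -1.24, 1.02 and -2.25. It was higher in every Col6a1+ library, by 2.78 on average (exact p = 0.1, adjusted p = 0.25). Pde3b itself had 44, 65 and 72 normalized counts in Col6a1+ CAFs and 77, 29 and 104 in Col6a1− CAFs. Its log2 fold change was -0.06 (SE 0.54, 95% interval -1.26 to 1.14, limma adjusted p = 0.969). The ratios of Npr1 to Npr2, Npr3 to Npr2 and Gucy1a2 to Gucy1a3 overlapped between the subsets, with differences of -0.19, 1.10 and 0.03 on the log2 scale (exact p = 0.7, 0.4 and 0.9, and adjusted p = 0.875, 0.667 and 0.9). For Npr1 to Npr2, the difference was 0.93 with 0.1 added to the counts, 0.40 without replicate 1 of Col6a1+ CAFs and 0.37 without replicate 2 of Col6a1− CAFs. For Gucy1a2 to Gucy1a3 it was -1.25 without replicate 1 of Col6a1− CAFs and -0.48 and -0.09 without replicates 3 and 1 of Col6a1+ CAFs, and it was 1.26 with 0.1 added. For Npr3 to Npr2 it was 3.25 with 0.1 added.

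The other genes of the pathway were taken from a list of 53 genes by role, all of which were in the table and 44 of which were tested. Of these, 6 were called higher and 3 lower in Col6a1+ CAFs, beside 2.66% and 1.96% of all genes tested. The median log2 fold change of the 44 was -0.28, close to that of all genes. With the block over all genes 0 of the 44 were called, with 19 at an unadjusted p under 0.05. With the block over the genes averaging 10 or more normalized counts, 7 of the 31 pathway genes tested were called higher and 6 lower. That fit called 981 of all 13515 genes higher and 871 lower. Without 1 library, 11 to 453 of all genes were called higher, and limma called 0 (without Col6a1− replicate 1) to 3 of the pathway genes. Pde1a, Kcnmb1, Rgs2, Gucy2c and Abcc4 passed in none of these fits. With a pseudocount of 0.1, 5 were called higher and 0 lower, beside 561 and 336 of all 26402 genes. Itpr3, Gucy2c and Abcc4 lost their calls in that fit (limma adjusted p = 0.0518, 0.0624 and 0.0618). In limma-voom 7 were called higher and 7 lower, beside 804 and 1006 of all genes. Lrmp, the other IRAG-family gene, had 0, 12 and 3 normalized counts in Col6a1+ CAFs and 42, 81 and 44 in Col6a1− CAFs. Its log2 fold change was -3.86 ± 1.01 (SE, adjusted p = 0.0585 in limma and 0.0218 in limma-voom). Pde1b had 139, 113 and 194 against 59, 37 and 14 (log2 fold change 2.17 ± 0.55 SE, adjusted p = 0.0523 in limma and 0.0392 in limma-voom). The remaining subunits of soluble guanylyl cyclase were higher. Gucy1a3 (ENSMUSG00000033910), the gene of the α1 subunit, had 574, 497 and 306 normalized counts in Col6a1+ CAFs and 65, 22 and 21 in Col6a1− CAFs. Gucy1b3 (ENSMUSG00000028005), the gene of the β1 subunit, had 232, 176 and 229 against 19, 12 and 5. For both genes each Col6a1+ library was above all Col6a1− libraries by a wide margin. Their log2 fold changes were 3.79 ± 0.49 (SE) and 4.19 ± 0.54 (SE), both with a limma adjusted p of 0.00232, and of 0.0612 with the block. With the block over genes averaging 10 or more normalized counts, their limma adjusted p-values were 0.00158 and 0.00310. Without Col6a1− replicate 1, neither passed (adjusted p = 0.0503 and 0.0552), and Gucy1a3 also did not pass without Col6a1− replicate 2 or 3 (adjusted p = 0.0548 and 0.0681). The genes lie next to each other on the minus strand of chromosome 3, with a gap of 17737 bases and 0 other genes of the table within it.

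**Figure D2:**
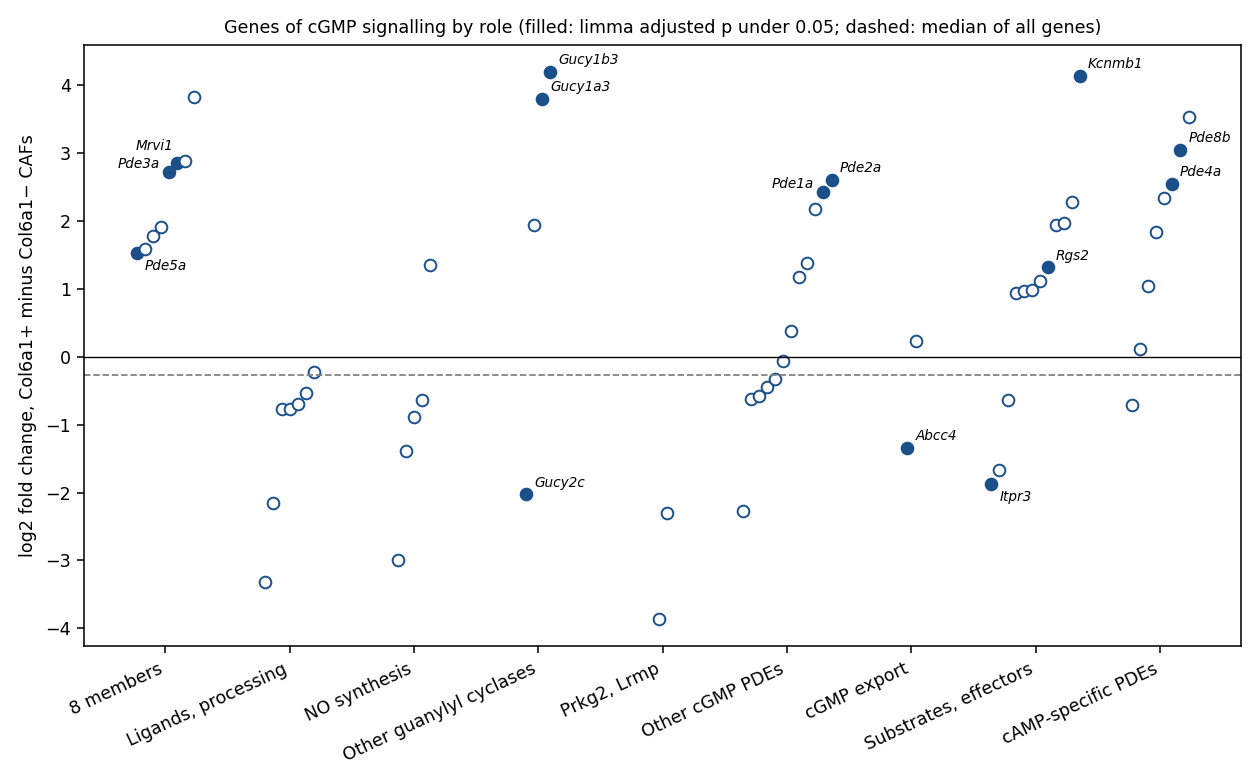
The log2 fold change (Col6a1+ minus Col6a1− CAFs, vertical axis) of each gene tested, in columns by role, where filled points passed a limma adjusted p of 0.05 and the dashed line is the median of all genes (-0.27). The 8 members and the called soluble cyclase genes lie above 1.5, the 7 ligand and processing genes lie below 0, and the phosphodiesterase genes lie on both sides.

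Of the other genes of phosphodiesterase families that act on cGMP, 12 of 14 were tested, and Pde1a and Pde2a were higher in Col6a1+ CAFs. The list was not limited to genes of catalytic subunits. Pde1a, whose product is activated by calcium and calmodulin, had 251, 266 and 220 normalized counts against 75, 60 and 20 (log2 fold change 2.42 ± 0.49 SE, adjusted p = 0.0209 in limma, and 0.0940 with the block). Pde2a, whose product is stimulated by cGMP, had 323, 221 and 355 against 49, 87 and 25 (log2 fold change 2.60 ± 0.47 SE, adjusted p = 0.0126 in limma, and 0.117 with the block). For both genes the subsets did not overlap. Their limma adjusted p-values were 0.00946 and 0.0119 with the block over genes averaging 10 or more normalized counts. The table lists Pde2a under 2 overlapping identifiers that differ by at most 4 normalized counts in a library, of which ENSMUSG00000030653 was used. The 8 genes of cAMP-specific phosphodiesterases, taken for comparison, also included 2 that were higher, Pde4a and Pde8b, with log2 fold changes of 2.54 ± 0.60 (SE) and 3.04 ± 0.66 (SE) and limma adjusted p-values of 0.0399 and 0.0281 (0.147 and 0.0630 with the block). Over genes averaging 10 or more normalized counts, limma with the block gave adjusted p-values of 0.0339 for Pde4a and 0.00707 for Pde8b. Pde8b passed in none of the 6 fits without 1 library (adjusted p = 0.0673 to 0.157). Pde4a passed only in that without Col6a1+ replicate 1, and it passed neither in limma-voom (adjusted p = 0.0530) nor with a pseudocount of 0.1 (adjusted p = 0.0568). Over both classes and the members, 22 genes of phosphodiesterase families were tested, with a median log2 fold change of 1.27. Of these, 6 were called higher and 0 lower, beside 2.66% and 1.96% of all genes tested. The 6 include the members Pde3a and Pde5a.

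Among the 14 substrates and effectors of the kinase, 12 were tested, and 2 were called higher and 1 lower. Kcnmb1, the smooth muscle subunit of the calcium-activated potassium channel, had 156, 92 and 146 normalized counts in Col6a1+ CAFs and 9, 19 and 1 in Col6a1− CAFs (log2 fold change 4.13 ± 0.82 SE, adjusted p = 0.0182 in limma, and 0.120 with the block). Rgs2, a regulator of G-protein signals that the kinase activates, had 1322, 2317 and 1313 against 743, 744 and 472 (log2 fold change 1.31 ± 0.33 SE, adjusted p = 0.0482 in limma, and 0.0974 with the block). It did not pass with library size as the scaling (adjusted p = 0.0539), with a pseudocount of 0.1 (adjusted p = 0.0595) or without any 1 of the libraries. The pore subunit of the same potassium channel, Kcnma1, had 0, 18 and 7 against 21, 36 and 5, with overlap between the subsets (log2 fold change -1.67 ± 1.24 SE, adjusted p = 0.588 in limma). Of the inositol trisphosphate receptor genes, Itpr3 was lower in Col6a1+ CAFs, with 62, 38 and 27 normalized counts against 170, 150 and 130 (log2 fold change -1.87 ± 0.43 SE, adjusted p = 0.0355 in limma, and 0.0916 with the block). Itpr1, whose product is the receptor in the complex of IRAG and the kinase, had 51, 129 and 150 against 61, 33 and 69, a log2 fold change of 0.93 ± 0.52 (SE, adjusted p = 0.434 in limma). The exporter gene Abcc4 was lower as well, with 169, 181 and 178 normalized counts against 651, 330 and 413 (log2 fold change -1.34 ± 0.33 SE, adjusted p = 0.0467 in limma, and 0.126 with the block). With the block over genes averaging 10 or more normalized counts, Kcnmb1 and Rgs2 had limma adjusted p-values of 0.0148 and 0.0137. Itpr3 and Abcc4 had 0.0183 and 0.0244 in that fit.

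**Figure D3:**
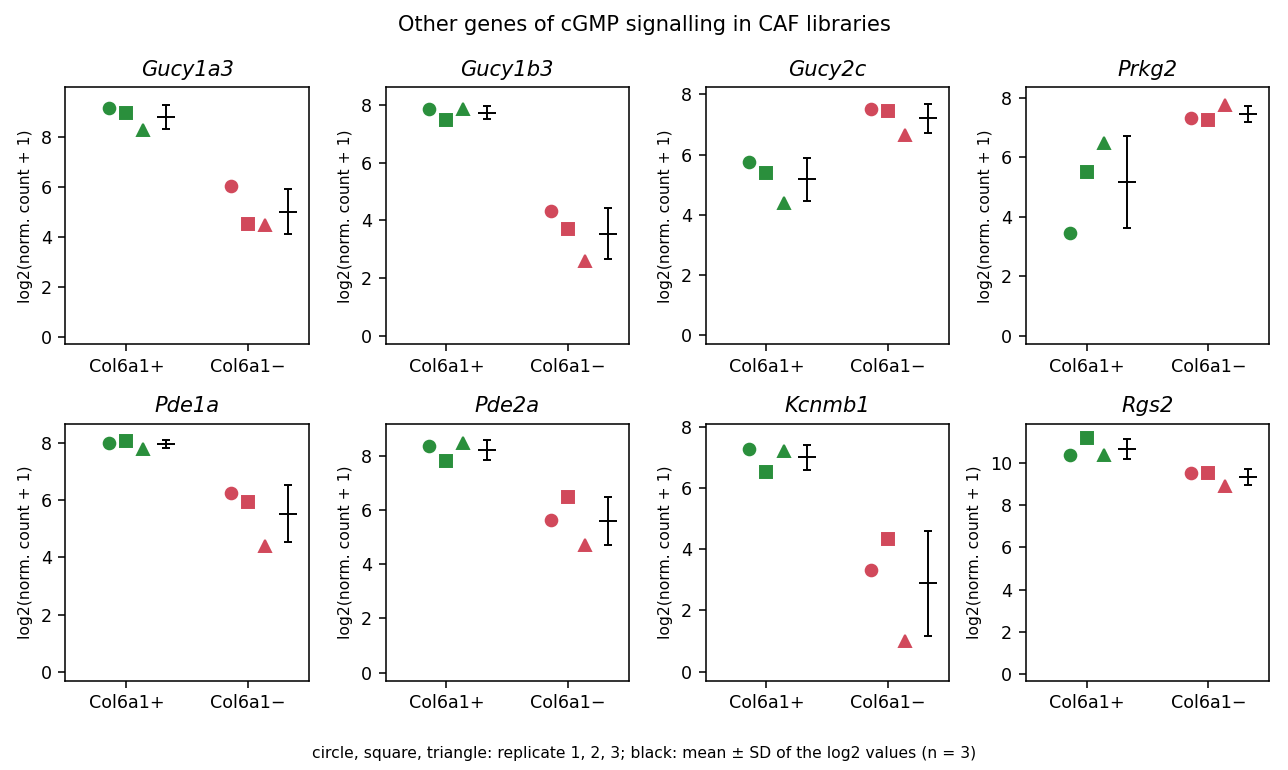
Levels of 8 other genes of the pathway in each library, as log2 of the normalized count plus 1 (vertical axis), for Col6a1+ CAFs (green) and Col6a1− CAFs (red), with symbols for replicates 1 to 3 and black bars for the mean ± SD of the log2 values (n = 3). Col6a1+ libraries are above all Col6a1− libraries for Gucy1a3, Gucy1b3, Pde1a, Pde2a, Kcnmb1 and Rgs2 and below them for Gucy2c and Prkg2.

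Genes of the natriuretic peptides had few counts. Nppa, Nppb and Ostn had at most 4 normalized counts in any library, and Nppc, the gene of the ligand of NPR2, had 3, 2 and 4 in Col6a1+ CAFs and 20, 0 and 11 in Col6a1− CAFs. Of the 7 ligand and processing genes tested, 0 passed in limma, with 2 at an unadjusted p under 0.05 (Guca2a and Guca2b), and 1 passed in limma-voom (Guca2b, lower, adjusted p = 0.0148). Of the 5 genes of nitric oxide synthesis, 0 passed in limma, with 2 at an unadjusted p under 0.05, and 1 passed in limma-voom (Nos3). Nos3, the endothelial synthase, had 0, 1 and 1 normalized counts in Col6a1+ CAFs and 13, 8 and 15 in Col6a1− CAFs. These levels did not overlap, and the difference of -2.99 ± 0.93 (SE) on the log2 scale had an adjusted p of 0.108 in limma and of 0.0233 in limma-voom. Of 10 endothelial markers, 9 had a negative log2 fold change, and the median over the list was -1.59. Egfl7, Emcn, Lyve1, Pecam1, Tek and Vwf were at 0 in Col6a1+ replicate 1. Emcn had 0, 13 and 63 normalized counts in Col6a1+ CAFs and 10, 22 and 15 in Col6a1− CAFs, so its mean count was higher in Col6a1+ CAFs. In limma 0 of the 10 were called lower, with 2 at an unadjusted p under 0.05 (Cdh5 and Egfl7), 0 in limma-voom and none at 0 in every library. Tie1 was called higher, with 220, 56 and 152 normalized counts against 1, 7 and 21. The summed level of the 10 was 274 to 553 normalized counts in Col6a1+ and 405 to 766 in Col6a1− libraries, which overlap. Without Tie1, a choice made after its values were seen, the other 9 summed to 148 to 401 against 404 to 759, with no overlap. The part of endothelial RNA in the level of Nos3 was not tested.

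The genes of the epithelial branch were lower in Col6a1+ CAFs or had lower values there. Gucy2c, the receptor for guanylin, had 53, 41 and 20 normalized counts in Col6a1+ CAFs and 182, 175 and 99 in Col6a1− CAFs (log2 fold change -2.03 ± 0.49 SE, adjusted p = 0.0425 in limma, and 0.0770 with the block). The guanylin gene Guca2a had 9, 18 and 25 against 40, 159 and 65, and its relative Guca2b had 0, 1 and 1 against 25, 14 and 9 (limma adjusted p = 0.104 and 0.0852). Prkg2 had 10, 45 and 89 against 159, 154 and 216, a difference of -2.29 ± 0.67 (SE) on the log2 scale (adjusted p = 0.0895 in limma and 0.0386 in limma-voom). With the block over genes averaging 10 or more normalized counts, limma adjusted p-values were 0.0139 for Gucy2c, 0.0458 for Guca2a and 0.0300 for Prkg2. Guca2b was not in that fit. For all of these 4 genes the highest Col6a1+ library lay below the lowest Col6a1− library, as it did in 11.6% of all genes tested. Epithelial markers moved in the same direction. The summed level of 10 of them, Epcam included, was 5722 to 6365 normalized counts in Col6a1+ libraries and 19976 to 33607 in Col6a1− libraries, 7 were called lower and 0 higher, and none was at 0, although the sort excluded EpCAM-positive cells. The part of epithelial RNA in the levels of Gucy2c, Guca2a, Guca2b and Prkg2, and of Itpr3 and Abcc4, was not tested.

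Mural markers moved with the members. All 7 of Rgs5, Pdgfrb, Cspg4, Notch3, Kcnj8, Abcc9 and Mcam were called higher in Col6a1+ CAFs, with a summed level of 41437 to 90948 normalized counts against 1147 to 2141. Col6a1+ replicate 1 stood apart in Mcam, with 38662 normalized counts against 5341 and 6072 in the other Col6a1+ libraries. The 6 visceral smooth muscle markers summed to 2516 to 3335 against 116 to 546, with 3 called higher, and the 6 pan-fibroblast markers to 37468 to 41177 against 6799 to 13785, with 4 called higher. Of the 3 markers of interstitial cells of Cajal, Ano1 was called higher, while Kit, the defining marker, had 0, 0 and 5 against 15, 12 and 14. The immune markers summed to 111 to 295 against 388 to 629 (1 of 10 called, lower), the erythroid ones to 110 to 1713 against 281 to 482 (0 of 6 called in limma, 0 at an unadjusted p under 0.05 and 0 in limma-voom), and the glial markers to 235 to 748 against 48 to 130 (1 of 5 called, higher). Over all marker lists, including the epithelial and endothelial ones, 25 markers were called in limma and 0 of these with the replicate block (adjusted p = 0.0612 to 0.197, with 25 at an unadjusted p under 0.05), while all 25 were called with the block over genes averaging 10 or more normalized counts. How much of the levels of Mrvi1, Pde3a, Pde5a, Gucy1a2, Gucy1a3 and Gucy1b3 came from mural cells was not tested.

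**Figure D4:**
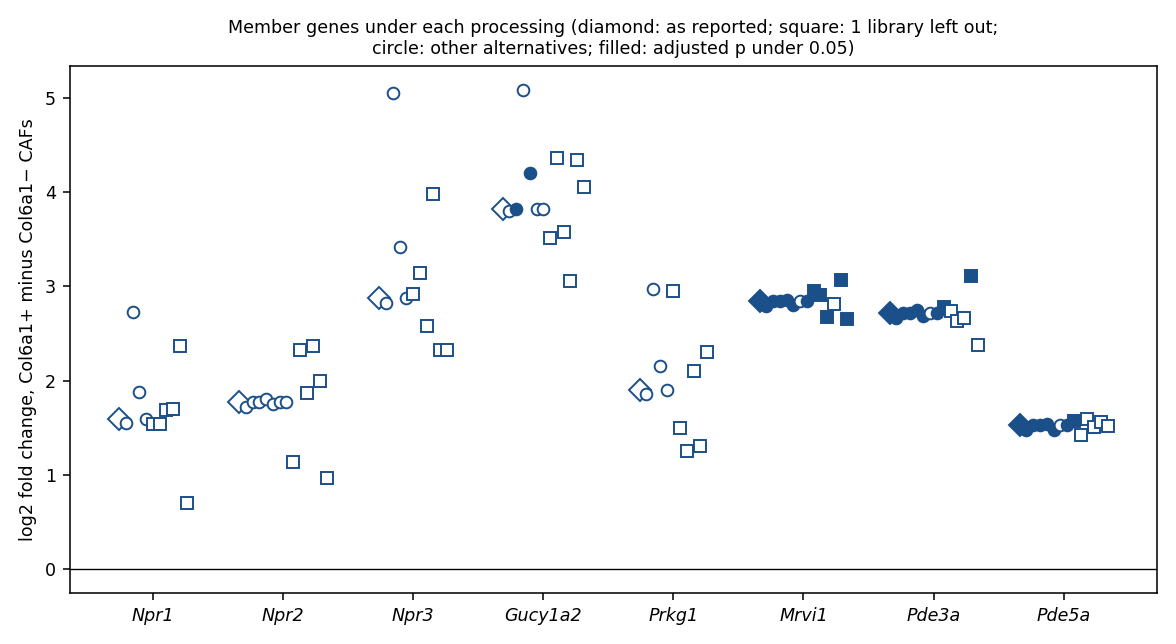
The log2 fold change (vertical axis) of each of the 8 genes as reported (diamonds), with 1 library left out (squares) and under the other alternatives (circles), where filled symbols passed an adjusted p of 0.05. All values are above 0, those of Pde5a lie between 1.43 and 1.60, and those of Npr3 reach from 2.32 to 5.05.

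For each member, the genes with the most similar profile were taken as those with the smallest root mean square difference of the 6 centred log2 values, among 8436 genes (8437 for a member with a mean below 50) averaging 50 or more normalized counts. The closest profiles were those of Gm9780 and Ppp1r18 to Pde3a (differences of 0.11 each on the log2 scale) and of Rab12 and Dnajb4 to Pde5a (0.11 and 0.12). Col6a3 and Ddr2 were closest to Mrvi1 (0.21 each), Cemip and Cnrip1 to Npr2 (0.36 and 0.37), and Bgn and Mageh1 to Npr1 (0.41 and 0.42). Gucy1a2 was nearest to Adora2a and Dmd (0.44 and 0.57), Npr3 to Gamt and Ngfr (0.60 and 0.63), and Prkg1 to Zfp618 and Amotl1 (0.59 and 0.68). Over 6 libraries that differ mainly by subset, such likeness describes these libraries and carries no test.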

How the data were processed

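Libraries were made with a 3′ mRNA kit and sequenced on an Ion Proton. The authors mapped reads to mm10 with TopHat2 and then Bowtie2, counted them per gene with GenomicRanges and normalized them with DESeq through metaseqR. The authors deposited the log2 of each normalized count plus 1, and 100% of the values were whole normalized counts. Columns of fold changes, p-values and group means in the table hold the authors' own comparison and were not used, nor were 6 further columns of per-sample values. The number of reads per library was not used here.

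Groups and replicate numbers came from the sample titles. The design assumed normalized values, for which limma 3.58.1 (lmFit, then eBayes with trended variances, with 4 residual degrees of freedom and 6.48 from the prior) was used in R 4.3.3, two-sided, with a pseudocount of 1. The test was checked on simulated data. Nothing states that the libraries of a subset are independent beyond coming from separate pools, so p-values measure the spread between these pools. In fits without 1 library, genes at 0 in the remaining libraries were dropped. Same-numbered libraries of the subsets deviated together (correlations of 0.245, 0.125 and 0.144 for replicates 1, 2 and 3 over 13515 genes). Correlations between different numbers were -0.245 to 0.150, and Col6a1+ replicate 2 was closer to Col6a1− replicate 3 than to its own number. The rule set for pairing, every same-numbered correlation over 0.1, was met. The calls as reported come from the fit without a block, which does not use a pairing. If same-numbered libraries share a pool, the fit with the replicate block is the one that matches the design. That fit called 0 members over all genes and 3 of the 5 tested over genes averaging 10 or more normalized counts. The fit with the replicate block is quoted beside each member and pathway gene whose call it alters, and once for the markers. The members, gene lists and markers were chosen with earlier results of these data known. Named genes are the members, the pathway genes called, the genes of the ratios, the nearest profiles and overlapping genes; the remaining pathway genes were named after their values were seen. Alternatives were library size scaling, filters on low values, a pseudocount of 0.1, limma-voom, the replicate block, unadjusted p-values and leaving out each library. Promoters were read from RefSeq (GRCm38.p6) with Python 3.11.15 and pandas 2.3.3, and plots drawn with Matplotlib 3.10.9.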

Additional observations from a re-analysis of the deposited data

How the results depend on the processing

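No member changed direction under any alternative. The number of members called at an adjusted p under 0.05, 3 as reported, was 3 or 4 with library size scaling, either filter, a pseudocount of 0.1, limma-voom and the replicate block over genes averaging 10 or more normalized counts. It was 0 with the replicate block over all genes, 6 at an unadjusted p under 0.05 with a log2 fold change over 1, and between 0 (without Col6a1− replicate 1) and 3 when 1 library was left out. Over all genes, leaving out 1 library gave 11 to 453 called higher, against 703 as reported. A pseudocount of 0.1 gave 561 of all genes higher and 336 lower, and limma-voom 804 and 1006, against 703 and 517 as reported. The number of other pathway genes called, 9 as reported, was 5 with a pseudocount of 0.1 (5 higher and 0 lower, against 6 and 3 as reported), 14 with limma-voom (7 and 7), 0 with the replicate block and 18 at unadjusted p-values, and it lay between 0 (without Col6a1− replicate 1) and 3 when 1 library was left out. At an unadjusted p under 0.05, limma with the block gave 6 members and 19 other pathway genes, and limma without Col6a1− replicate 1 gave 6 and 18. The block gave 981 genes higher when low genes were left out and 0 over all genes, so its calls depend on whether genes with few counts are included, and the cause was not tested. The log2 ratio difference of Npr1 to Npr2 was -0.19 as reported and 0.93 with a pseudocount of 0.1. When 1 library was left out, the ratio differences lay between -0.78 and 0.40 for Npr1 to Npr2, -1.25 and 0.80 for Gucy1a2 to Gucy1a3, 0.33 and 1.78 for Npr3 to Npr2, 2.06 and 3.70 for Pde3a to Pde3b and 3.69 and 4.46 for Prkg1 to Prkg2. Pde3b, which was not called, had log2 fold changes of 0.15, 0.10 and 0.31 without Col6a1+ replicate 1, Col6a1− replicate 1 and Col6a1− replicate 3, within a range of -0.59 to 0.31. Few counts limit the results for Npr1, Npr3, Prkg1 and the natriuretic peptide ligands, which had at most 23 normalized counts in any library.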
